A study of Saccharomyces cerevisiae with 4 samples.

Results

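The genes described here encode the structural RNAs of budding yeast that RNA polymerase II makes apart from the small nucleolar RNAs (snoRNAs): the spliceosomal RNAs U1 (SNR19), U2 (LSR1), U4 (SNR14) and U5 (SNR7-L and SNR7-S), the RNA of RNase MRP (NME1) and the telomerase RNA (TLC1). They were listed by name, without a threshold on a measured value but with earlier results of these data known, and make up 7 of the 6431 nuclear genes in the RefSeq table of the R64 build. SNR7-S lies inside SNR7-L on the same strand with the same annotated 5′ end, so the 7 genes occupy 6 loci. Chromatin was taken from an untagged strain and from a strain with the genotype Acs2-FLAG, both cultured at 28 °C (OD600 from 0.7 to 1.0) in the rich medium YPD with 2% glucose, fixed in 1% formaldehyde. From each strain an input without antibody and an immunoprecipitate with the FLAG antibody M2 were sequenced, 1 library each. Where the tag sits in Acs2, which strain background was used and whether the tagged protein replaces Acs2 is not given by the labels. Each group is 1 library, so replicate error cannot be stated and the strains were not tested against each other.

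U1, U2, U4, U5 and U6 are the RNA cores of the small nuclear ribonucleoproteins (snRNPs) that recognise introns and carry out pre-mRNA splicing. U1, U2, U4 and U5 are transcribed by RNA polymerase II, carry a trimethylguanosine cap and have their 3′ ends formed without a messenger-type poly(A) tail, with help from the Nrd1-Nab3-Sen1 complex and the endonuclease Rnt1, whereas U6 is a product of RNA polymerase III. RNase MRP cuts the precursor of ribosomal RNA and is a sister of RNase P, whose RNA, RPR1, is again made by polymerase III. TLC1 carries the template from which telomerase copies telomeric repeats. Acs2 is the acetyl-CoA synthetase of the nucleus and cytosol and makes the acetyl-CoA that histone acetyltransferases use.

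The data are 2 deposited peak lists, 912 peaks for the Acs2-FLAG immunoprecipitate and 34 for the untagged one, of which 24 were nuclear. Fold enrichment is the authors' own value for each peak. It is a height at 1 base, the summit, relative to the background there. The header of each list names the input first and the immunoprecipitate second, without saying which is the background. The folds are read here as immunoprecipitate over input, and turned round they would be enrichments of the input. The 95% exact Poisson intervals in brackets cover the counting error of the fragments at the summit only. The lowest background at any summit, in fragments per base, was 291 in the Acs2-FLAG library and 198 in the untagged library.

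An Acs2-FLAG peak shared at least 1 bp with 6 of the 7 genes, at 5 of the 6 loci; TLC1 had none. Over all nuclear genes 18.4% met an Acs2-FLAG peak, and over the 3245 nuclear genes of the same length range, 160 to 1301 bp, 17.6% did. An untagged peak met 0 of the 7 genes, against 0.653% of all nuclear genes, and also 0 with 500 bp upstream added (0.793%). The count of Acs2-FLAG peaks was 6 when the peak had to cover at least 50% of the gene (12.6% of all nuclear genes), to have a −log10 q of at least 5 (16.2%) or to share no base with an untagged peak (17.4%), and when 500 bp downstream were added (23%). Among the 456 strongest peaks it was 5 (11.2%), with SNR14 lost. The fold at the 5 loci ran from 1.51 at SNR14 to 2.30 at SNR19, with a median of 2.06, beside a median of 1.61 over the whole list. All 5 peaks covered their gene from end to end. Of the 1182 nuclear genes that met a peak, 555 were covered in this way, and of the 571 of the same length range, 170 were. So were 60 of the 67 snoRNA genes other than SNR52 that met a peak, and all 270 such tRNA genes.

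SNR19 (chromosome XIV, 230105 to 230672, minus strand), the gene of U1, which pairs with the 5′ splice site, had the strongest of these peaks. Its fold was 2.30 (2.13 to 2.48), from 672 fragments at the summit over a background of 291.1, and the untagged list had no peak anywhere on that chromosome. The peak was 1129 bp wide, ranked 308 of 912 by fold, and had its summit inside SNR19, 358 bases from the 5′ end of the 568 bp gene. It was thus stronger than 66.2% of the list.

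LSR1 (chromosome II, 680688 to 681862, minus strand) encodes U2, which pairs with the intron branch point. Its fold was 1.92 (1.77 to 2.09), from 560 fragments over 291.1, with no untagged peak; the nearest of those lay 202 kb away, at TEF2. At 1805 bp this was the widest of the 5 peaks, wider than 89.9% of the list. The gene itself is 1175 bp long, and the summit lay 324 bases from its 5′ end, in the first part of the gene.

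SNR14 (chromosome V, 167427 to 167586, minus strand) encodes U4, which holds U6 inactive by base pairing until the spliceosome is activated. It had the weakest peak, with a fold of 1.51 (1.38 to 1.65), rank 508 and no untagged counterpart. Its 515 fragments stood over a background of 340.5, 1.17 times the lowest of the library, the highest background among the 5 loci. Against the lowest background its fold would be 1.77, still the lowest of the 5. The summit was not in the gene: it lay 92 bp past the 3′ end, in sequence without an annotated gene.

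SNR7-L (chromosome VII, 939459 to 939672, minus strand) and SNR7-S (939494 to 939672) are the long and short forms of U5, which holds the exons during both steps of splicing. They share 1 peak of 626 bp with a fold of 2.06 (1.89 to 2.23), from 600 fragments over 291.4, and its summit lay 167 bases from their common 5′ end, inside both forms. A peak at this locus cannot be divided between the 2 forms. The nearest untagged peak was 55.6 kb away, at TDH3.

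NME1 (chromosome XIV, 585587 to 585926, plus strand) lay in a peak with a fold of 2.27 (2.10 to 2.44), from 713 fragments over 314.1. The peak, 1028 bp wide, also covered SNR66 (586090 to 586175), a box C/D snoRNA gene that lies 163 bp downstream on the same strand. The summit was in SNR66, 51 bases from its 5′ end, and 214 bp past the 3′ end of NME1. The list gives 1 summit for this peak, so the height over NME1 itself is not known.

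TLC1 (chromosome II, 307587 to 308887, plus strand), the longest gene of the group, met no peak of either list. The nearest Acs2-FLAG peak, from 306717 to 307319, ended 267 bp upstream of its 5′ end. That peak had a fold of 1.25 (1.13 to 1.39) and ranked 809 of 912. It overlapped PDX3, of vitamin B6 metabolism, and SNR161, a box H/ACA snoRNA gene on the opposite strand. Its summit lay in SNR161. With 500 bp upstream added to each gene, TLC1 met this peak too, giving 7 of 7 genes against 25.1% of all nuclear genes. At the lowest background, a summit with a fold under 1.16 would not have reached the lowest −log10 p of the list (2.54), so TLC1 is without a called peak rather than shown to be free of signal.

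**Figure D1:**
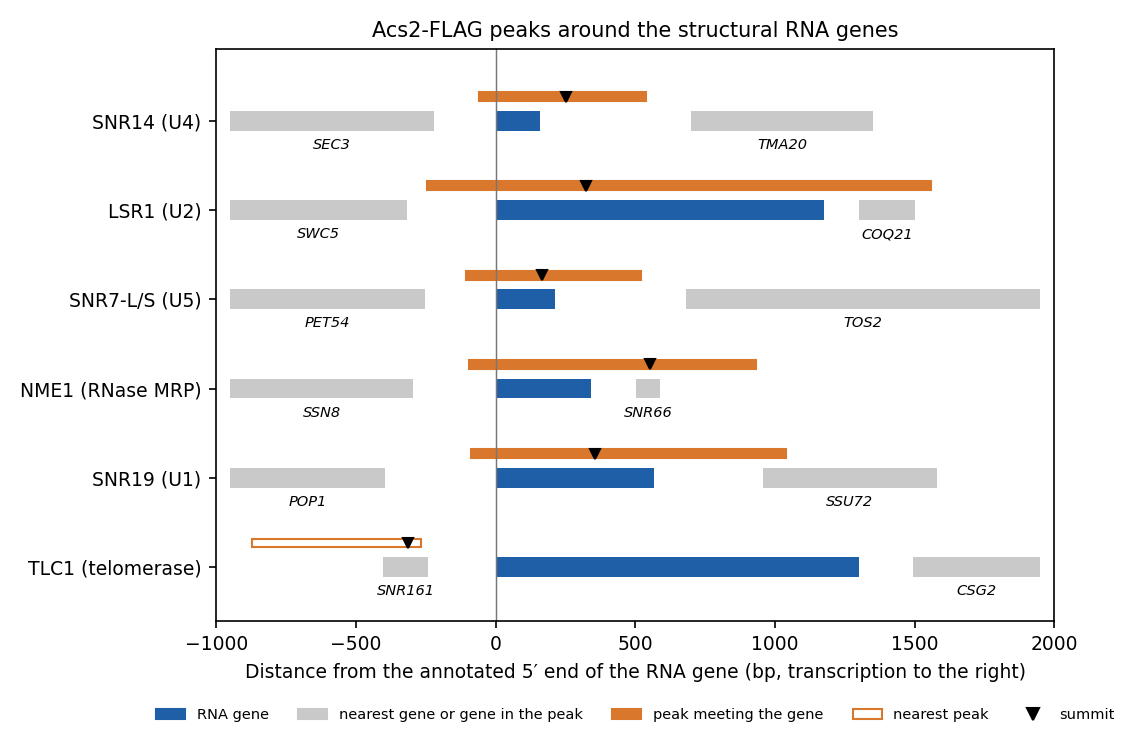
Acs2-FLAG peaks (orange bars, summit as a triangle) drawn over the 6 loci, in bp from the annotated 5′ end of the RNA gene, with transcription to the right and the nearest gene on each side in grey, long ones cut at the plot edge. Summits lay inside SNR19, LSR1 and SNR7-L/S, 92 bp past the end of SNR14, and in SNR66 downstream of NME1; the open bar is the peak nearest to TLC1, over SNR161.

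The summit was therefore inside the gene at 3 of the 5 loci. That is 4 of the 7 genes, against 12% of all nuclear genes and 10.1% of those of the same length range. Among genes that met a peak, it was inside 4 of the 6 members (66.7%), near the 65.3% of all such nuclear genes. For those of the same length range the share was 57.4%. At the other 2 loci the summit lay past the 3′ end, and at none of the 5 before the 5′ end. Each of the 5 peaks also reached farther beyond the 3′ end of its gene than beyond the 5′ end, a comparison chosen after the values were seen. The reach past the 3′ and 5′ ends was 473 and 88 bp at SNR19, and 383 and 247 bp at LSR1. It was 379 and 58 bp at SNR14, 306 and 106 bp at SNR7-L, and 592 and 96 bp at NME1. The 5 loci thus differ in how far the peak reached, but not in the side on which it reached farther.

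Among 59 snoRNA genes outside these loci that lie wholly inside a peak, 38 (64.4%) had the longer reach on the 3′ side, and among the 11 that are alone in their peak, 8 did. Of 43 protein-coding genes of the same length range that are alone and wholly inside a peak, 29 (67.4%) did. Among 159 tRNA genes alone in their peak, 54 (34.0%) did, with median reaches of 197 bp past the 3′ end and 215 bp past the 5′ end. Of the 59 snoRNA genes, 16 had the summit past the 3′ end and 13 before the 5′ end. For the 11 alone in their peak these counts were 1 and 2. They were 3 and 3 for the 43 protein-coding genes, and 0 and 2 for the 159 tRNA genes. The 59 snoRNA genes were counted by gene rather than by peak, and some share a peak, as SNR72 to SNR78 do. In that peak the reach past the 3′ end was 1373 bp for SNR78 and 86 bp for SNR72. The peaks at SNR19, LSR1 and NME1 also hold a downstream gene, so only SNR14 and SNR7-L/S match the genes alone in their peak. The difference between the 5 loci and these classes was not tested.

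**Figure D2:**
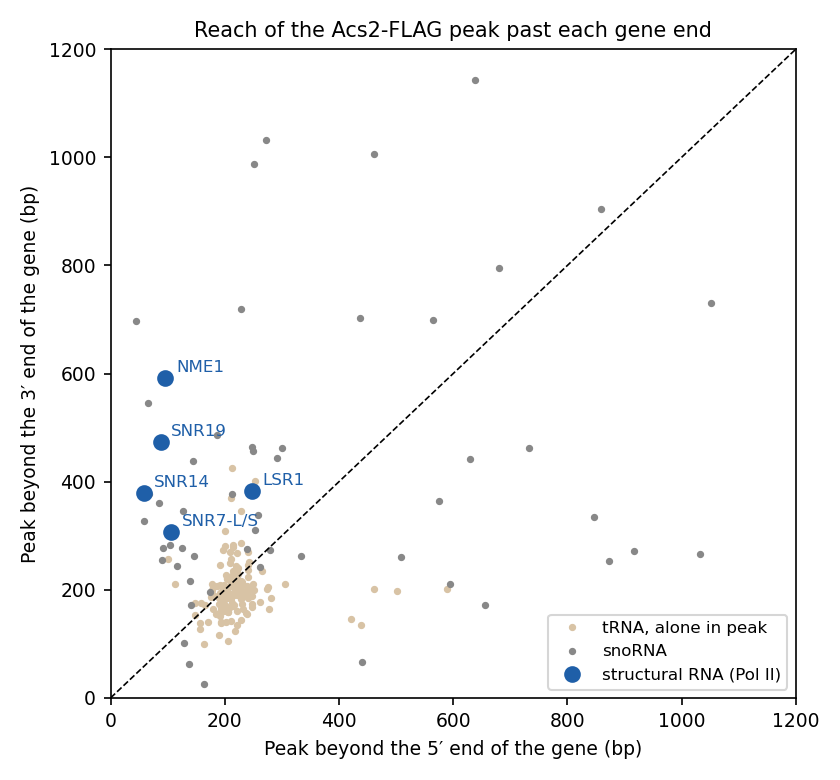
Reach of the peak past the 3′ end (vertical, bp) against the reach past the 5′ end (horizontal, bp) for genes wholly inside an Acs2-FLAG peak; points above the dashed line reach farther on the 3′ side, and 7 of the 218 snoRNA and tRNA points lie beyond the 1200 bp axes. The 5 structural RNA loci lie above the line, and the tRNA genes gather around 200 bp on both axes.

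The genes next to the 6 loci were 12 in number. Of these, 3 lay partly or wholly in the same peak as a structural RNA gene, 1 (SNR161) had a peak that met no structural RNA gene of the group, 8 had no peak, and 0 had an untagged peak. Over all nuclear genes, 18.4% met an Acs2-FLAG peak and 0.653% an untagged one. The 3 in the same peak all lie downstream. They are SSU72, a phosphatase of the polymerase II tail with a part in transcription termination, COQ21, and SNR66. The SNR19 peak held 83 bases of SSU72, and the LSR1 peak held all 201 bases of COQ21, whose end faces that of LSR1. No peak met any of the 5 upstream neighbours: POP1, a protein subunit of RNase MRP and RNase P, next to SNR19, SWC5 next to LSR1, SEC3 next to SNR14, PET54 next to SNR7-L, and SSN8 next to NME1. All 5 are protein-coding, and 13.5% of nuclear protein-coding genes met an Acs2-FLAG peak. A count of 0 in 5 is near that share, and a difference between the 2 sides was not tested. At SNR14 and SNR7-L, the peak held no other annotated gene.

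Ordered by fold, the 5 loci ran SNR19, NME1, SNR7-L/S, LSR1, SNR14. This is an order of peaks: the NME1 value is a height in SNR66, and the SNR14 value a height 92 bp past that gene. The counting intervals of neighbours overlapped at SNR19 and NME1, at NME1 and SNR7-L, and at SNR7-L and LSR1. SNR14 lay below LSR1 with the intervals apart, a ratio of 1.27. From end to end, the fold at SNR19 was 1.52 times that at SNR14. The first place in this order and the separation of SNR14 depend on the background used, whereas the last place does not. Against the lowest background of the library, the fold of the NME1 peak (2.44) was above that of SNR19 (2.30), again with overlapping intervals. SNR14, at 1.77 (1.62 to 1.93), then lay below LSR1, at 1.92 (1.77 to 2.09), by a ratio of 1.09 with overlapping intervals.

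The polymerase III genes with related roles gave 3 comparisons within the Acs2-FLAG list. U6 (SNR6), which pairs with U4 and is the only spliceosomal RNA made by polymerase III, had a fold of 2.93 (2.75 to 3.12). This is 1.27 times that of U1, 1.43 times that of U5, 1.53 times that of U2 and 1.94 times that of U4, with the counting intervals apart in each pair. The RNA of RNase P (RPR1) had 2.33 (2.17 to 2.50), and the peak over its sister RNA in RNase MRP, NME1, had 2.27; their ratio was 1.03 and their intervals overlapped. The RPR1 summit lay 20 bp before the 5′ end of the mature RNA, whereas that of the NME1 peak lay past the 3′ end, in the snoRNA gene SNR66. Both values are thus heights outside the RNA genes and do not compare the heights over RPR1 and NME1 themselves. The signal recognition particle RNA (SCR1), at 4.67 (4.46 to 4.89), was 2.03 times as high as SNR19. The peak over SNR52, a snoRNA of polymerase III, had 3.89 (3.67 to 4.12), with its summit 105 bp before the 5′ end, where no gene is annotated. None of these 4 genes met an untagged peak. Against the lowest background of the library, the folds were 3.25 at SNR6, 2.69 at RPR1, 6.26 at SCR1 and 3.95 at SNR52. SNR19 then had 2.30 and the NME1 peak 2.44, so the ratios above depend on the background used.

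**Figure D3:**
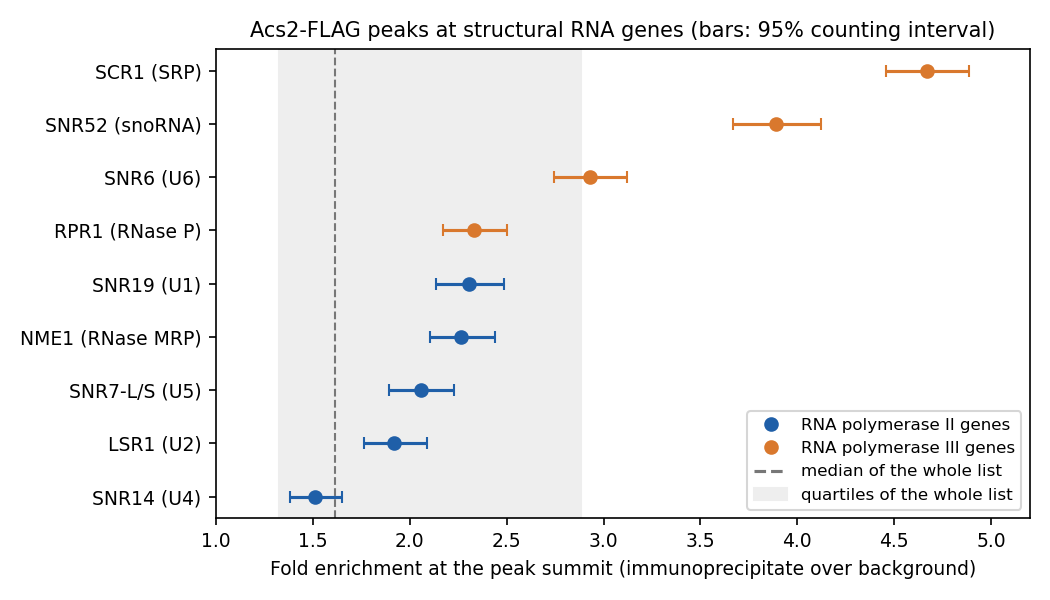
Fold enrichment at the summit (horizontal, linear) of the Acs2-FLAG peak at each structural RNA gene, with 95% counting intervals as bars; blue marks RNA polymerase II genes, orange polymerase III genes, and the grey band the quartiles of the whole list (1.32 and 2.88). The 5 polymerase II loci lie between 1.51 and 2.30, below SNR6, SNR52 and SCR1, while RPR1 at 2.33 overlaps the upper ones. The summits of the SNR14, NME1, RPR1 and SNR52 peaks lie outside those genes.

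The snoRNA genes other than SNR52, mostly polymerase II products as well, met an Acs2-FLAG peak at 67 of 75 (89.3%), and the nuclear tRNA genes at 98.2%. Without the NME1 peak, which covers a snoRNA gene, the median over 53 snoRNA peaks was 1.81, and the quartiles were 1.55 and 2.13. The range of the 5 loci, 1.51 to 2.30, held 34 of these 53 peaks (64.2%). SNR19 exceeded 43 of the 53, SNR7-L 37, LSR1 31 and SNR14 9. Of the 53 peaks, 3 also hold a tRNA gene; without them the median was 1.79 and the largest fold 3.26, and SNR19 exceeded 43 of 50. Leaving aside NME1, whose peak has its summit in the snoRNA gene SNR66, the structural RNA loci with a peak thus lay within the spread of the snoRNA peaks.

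The tRNA peaks lay higher, with a median of 3.18, and 8 of 264 (3.03%) fell in the range of the 5 loci. SNR19 exceeded 8 of the 264, and SNR14 exceeded 0. Peaks at protein-coding genes with no tRNA or snoRNA gene and no member had a median of 1.39 (quartiles 1.28 and 1.64, 519 peaks). SNR19 exceeded 482 of the 519 and SNR14 343. The 519 include the SCR1 and RPR1 peaks, which also meet the coding genes YER137C and TIM9, and without these 2 the median was again 1.39. These are places within 1 list, without a test.

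**Figure D4:**
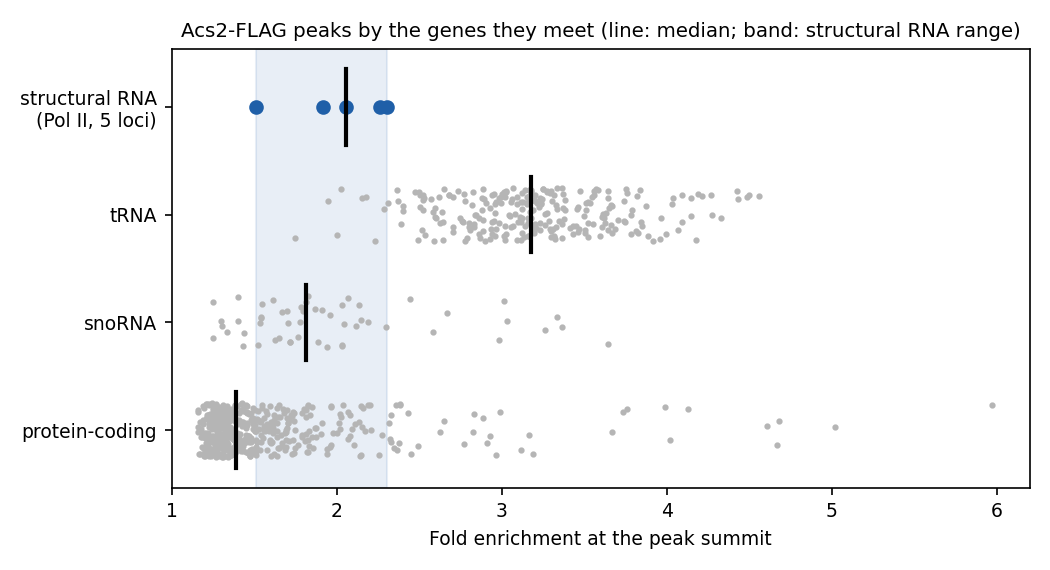
Fold enrichment at the summit (horizontal, linear) of Acs2-FLAG peaks, 1 point per peak, by the genes they meet, with the median as a black line and the range of the 5 structural RNA loci as a blue band. That band holds 34 of the 53 snoRNA peaks, 8 of the 264 tRNA peaks and 139 of the 519 protein-coding peaks.

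The genes of the protein partners were counted in the same way. Of 78 listed genes for snRNP, RNase MRP and P, telomerase and snRNA processing proteins, 7 (8.97%) met an Acs2-FLAG peak in the gene body, against 13.5% of nuclear protein-coding genes, and 0 met an untagged peak (0.4% of protein-coding genes). With 500 bp upstream added, 11 met an Acs2-FLAG peak (20.6%), 1 of them, MUD1, through the peak over TEF2, which shares bases with an untagged peak; with the summit inside the gene 1 did (7.75%), with at least 50% of the gene covered 2 (7.36%), and at a −log10 q of at least 5, 6 (11.2%). The difference from all protein-coding genes was not tested under any of these rules. In the gene body, 0 of the 10 genes of U1 proteins and 0 of the 16 of the U4/U6.U5 tri-snRNP met a peak; with 500 bp upstream, MUD1 of U1 and PRP6 and SNU13 of the tri-snRNP did. Of 11 U2 genes, PRP21 had a peak of 1.22 (1.10 to 1.35), and of 14 genes of the Sm and Lsm rings, which bind U-rich sites in spliceosomal RNAs, SMX2 had one of 1.38 (1.25 to 1.52). SMX2 was the only listed gene to hold the summit of its peak.

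Of 11 genes of RNase MRP and P proteins, RPR2, a subunit of RNase P, had a peak of 1.28 (1.17 to 1.40) with its summit in YIR016W. Among 8 telomerase and telomere cap genes, YKU70 (3.61), TEN1 (3.55) and EST3 (2.62) met peaks, and all 3 summits lay in neighbouring tRNA genes. EST3 encodes a telomerase subunit, TEN1 a member of the single-strand telomere cap, and YKU70 a subunit of the DNA end-binding Ku complex that also binds TLC1. Of 8 genes of snRNA termination and processing, NRD1, whose protein binds the nascent RNA, had a peak of 2.36 (2.19 to 2.55) with its summit upstream of the coding sequence, where no gene is annotated.

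The untagged comparison has limits that touch every fold given here. At the lowest untagged background, a summit with a fold under 1.26 would not have reached the lowest −log10 p of that list. The lower bounds of the Acs2-FLAG folds at the 5 loci, from 1.38 at SNR14 to 2.13 at SNR19, lay above that value, but with 1 library on each side this sets 2 libraries beside each other, not 2 strains.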

How the data were processed

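Chromatin immunoprecipitates with the FLAG antibody M2 and their inputs were sequenced from an untagged and an Acs2-FLAG strain, 1 library in each of 4 groups taken from the titles. The submitters' processing notes name Trimmomatic, BWA, Picard, MACS2 and build R64, with no settings or read totals. Per the file headers, each deposited list pairs 1 immunoprecipitate with the same strain's input, so peaks were called per library. The headers name the input first and do not say which is the background; the input was taken as such. The deposited fold is a ratio to the background at the summit. At SNR19, LSR1 and SNR7-L/S this was 1.00 times the lowest of the library, at NME1 1.08 times and at SNR14 1.17 times. The deposited −log10 p and −log10 q belong to the summit, and the deposited score, the −log10 q multiplied by 10 and truncated, was left aside.

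Fragment count n and background were solved from fold = (n + 1)/(background + 1) and the Poisson tail, as MACS2 computes them. The count came out whole within 0.05 at 907 of 912 Acs2-FLAG and 30 of 34 untagged summits, all members included. This solving step recovered 300 of 300 counts in data simulated with the same formulas, which tests the solving and not the formulas. Genes, lengths and coordinates came from the RefSeq R64 table, strand from the systematic name, and peaks sharing at least 1 bp with a gene were matched, with the strongest kept; bedtools 2.31.1 found the same 1182 genes. The unit of depth is the fragment count at a summit, and intervals cover counting error only.

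The members and gene lists were chosen with earlier results of these data known. Named are the members, 4 polymerase III RNAs, the genes next to a member or in its peak, and up to 4 listed protein genes with the highest fold per list. Promoter motifs and sequences were not analysed here. Alternatives changed the overlap rule, the gene region, the peak threshold and the fold definition. Python 3.11.15, pandas 2.3.3, scipy 1.17.1 and matplotlib 3.10.9 were used.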

Additional observations from a re-analysis of the deposited data

How the results depend on the processing

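No paired analysis was possible because each group has 1 library, and for the same reason no replicate could be left out. The count of 6 of 7 genes with an Acs2-FLAG peak became 4 with the summit required inside the gene, 5 among the stronger 456 peaks and 7 with 500 bp upstream added, where the added gene, TLC1, meets the peak over SNR161. It was 6 with at least 50% of the gene covered, with a −log10 q of at least 5, with unshared peaks only and with 500 bp downstream added, the last chosen after seeing the data. The count of 0 untagged peaks was 0 in both alternatives. The median fold was 2.06 under each of 7 alternatives. Each time it was the fold of the SNR7-L/S peak, whose counting interval was 1.89 to 2.23. That peak passed every filter, at 1.00 times the lowest background, so these alternatives could hardly move the median. The distance from summit to midpoint had a median of 124.2 bp over 6 genes, 171.5 bp with each locus counted once and 139.0 bp from the peak midpoint. The 7 protein genes with a peak became 11 with 500 bp upstream, 2 with at least 50% of the gene covered, 1 with the summit inside the gene and 6 with a −log10 q of at least 5; the first follows from a larger region and the next 2 from a stricter overlap.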
